A study of Mus musculus with 8 samples.

Results

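Cytosolic ribosomal proteins were followed as a group in mouse T-cell progenitors, by bulk RNA sequencing. Members were taken by symbol: every protein-coding gene named Rpl or Rps with a number, including paralogs ending in l, a or x, together with Rplp0, Rplp1, Rplp2 and Rpsa. The rule found 85 of the 24506 genes of the deposited count table, of which 53 encode proteins named for the large subunit and 32 proteins named for the small subunit. Rps4l met the spelling but is typed as a pseudogene and was left out, and the fusion-protein gene Fau and the subunit gene Rack1 lie outside the spelling. A filter on low counts kept 83 members among the 13775 genes tested, and Rpl10l and Rpl32l, listed at 0 FPKM in all 8 libraries, were not tested.

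The libraries came from bone-marrow progenitors of mice that carry Cas9, a Bcl2 transgene and a Bcl11b-mCherry reporter on both alleles, so the control cells carry all of these too. Retroviral guides were introduced and the cells spent 6 days on OP9-DLL1 stroma, which presents the Notch ligand Dll1, in medium with 10 ng/ml of each of the cytokines IL-7 and Flt3l. Lineage-negative, CD25-positive cells that bore the infection marker were sorted by mCherry, a reporter of Bcl11b, whose activation marks commitment to the T lineage. The series text calls the mCherry-positive gate reporter negative as well, while naming it post-commitment, and the gates here follow the sample titles. This gave 4 groups of 2 libraries: mCherry-positive, post-commitment cells with 3 guides against Stat5a and 3 against Stat5b (late sgStat5), mCherry-positive cells with control guides (late control), mCherry-negative, pre-commitment cells with the Stat5a and Stat5b guides (early sgStat5), and mCherry-negative cells with control guides (early control). The sources used here do not give the target of the control guides, any pooling of animals, or the origin of the replicates, so the p-values reflect the spread among these libraries, which may be technical.

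A ribosome is built from ribosomal RNA and one copy of nearly every ribosomal protein, so cells make these proteins in close balance and in large amounts. Most of their mRNAs begin with a 5′ terminal oligopyrimidine (TOP) tract, through which mTORC1 signalling controls their translation. STAT5a and STAT5b are transcription factors that act downstream of the IL-7 receptor, a growth and survival pathway of early T cells. In mice, loss of the ribosomal protein Rpl22 blocks the development of alpha-beta T cells, and its paralog Rpl22l1 is held down by Rpl22.

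The libraries held between 22146490 and 31209177 counts. The targeted genes were lower in the sgStat5 libraries. By edgeR's quasi-likelihood test with Benjamini-Hochberg adjustment over all tested genes, the test used throughout at a threshold of 0.05, Stat5a fell by 1.15 on the log2 scale in the late gate (adjusted p = 0.00451) and by 1.29 in the early gate (adjusted p = 0.0112). Stat5b fell by 0.89 in the late gate (adjusted p = 0.00876) and by 0.86 in the early gate (adjusted p = 0.0280). Leaving out 1 library ended the Stat5b call in the early gate for each of its 4 libraries and in the late gate for late sgStat5 replicate 2, and the Stat5a call in the early gate for 3 of 4, with log2 fold changes from -1.29 to -0.80. An edited mRNA can still be counted, so these values do not measure the protein. Bcl11b, which marks the sort gates, had a log2 fold change of 2.58 in late against early sgStat5 cells and of 2.10 in late against early control cells. Its adjusted p was 0.0908 in sgStat5 cells and 0.256 in control cells, and 3.76e-05 and 0.000308 when the replicate number was also fitted as a block. The 8 T-progenitor markers summed to between 4629 and 8004 CPM (counts divided by the TMM-scaled library size) and the 6 B-cell markers to between 6.46 and 17.0 CPM. Single T-progenitor markers moved in both directions with the guides. Il2ra had a log2 fold change of -0.89 in late sgStat5 against late control cells (adjusted p = 0.0352). With the block, Il2ra and Thy1 were lower in sgStat5 cells of both gates, and Tcf7, Gata3 and Ptprc were higher in those of the late gate.

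Transcripts of the ribosomal proteins were among the most abundant of the libraries. Per length of transcript, 33 of the 50 genes with the highest mean FPKM and 59 of the top 100 were members. Their median mean FPKM was 757.9, against 6.68 over all tested genes, with 704 for the large subunit and 807.5 for the small subunit. Mean FPKM was at least 1000 for 24 members and at least 300 for 74. Rpl41, the smallest ribosomal protein, had the highest mean at 1782 FPKM and ranged from 1568 to 2168 FPKM over the libraries. Rpl28 followed with a mean of 1561 FPKM (1467 to 1630), and Rplp0, which anchors the stalk that recruits elongation factors, with 1452 FPKM (1368 to 1552). Rpl28 and Rplp0 overlap in their ranges, so their order is not larger than the spread between libraries.

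Rplp0 had 1377 and 1377 FPKM in late sgStat5 cells, 1502 and 1542 in late control cells, 1368 and 1408 in early sgStat5 cells, and 1485 and 1552 in early control cells. Rpsa, a small-subunit protein also known as the laminin receptor precursor, had 720.0 and 655.5 FPKM in late sgStat5 cells, 727.3 and 738.0 in late control cells, 746.9 and 684.6 in early sgStat5 cells, and 748.2 and 790.7 in early control cells. For both genes the sgStat5 libraries lay below the control libraries of their own gate, and the 4 group means lay within a narrow band.

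Below this plateau stood 7 members with mean FPKM between 30 and 300: Rpl22l1, Rps20, Rps27l, Rpl22, Rpl21, Rps15a and Rpl7l1. Part of this order follows the transcript that was counted, because Rps15a was divided by a transcript of 5127 bases, Rps20 by one of 3440 and Rpl21 by one of 1848. The other 4 members had a mean FPKM under 10. Rpl3l, known from heart and skeletal muscle, averaged 0.832 FPKM and ranged from 0 to 2.26. Rpl39l, known from the testis, averaged 0.292 FPKM and reached its highest value in early control replicate 1, with 29 counts. Rpl10l, a testis paralog of Rpl10, and Rpl32l were listed at 0, and Rpl32l, which the count table types as protein-coding, is a processed pseudogene in GENCODE M21.

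**Figure D1:**
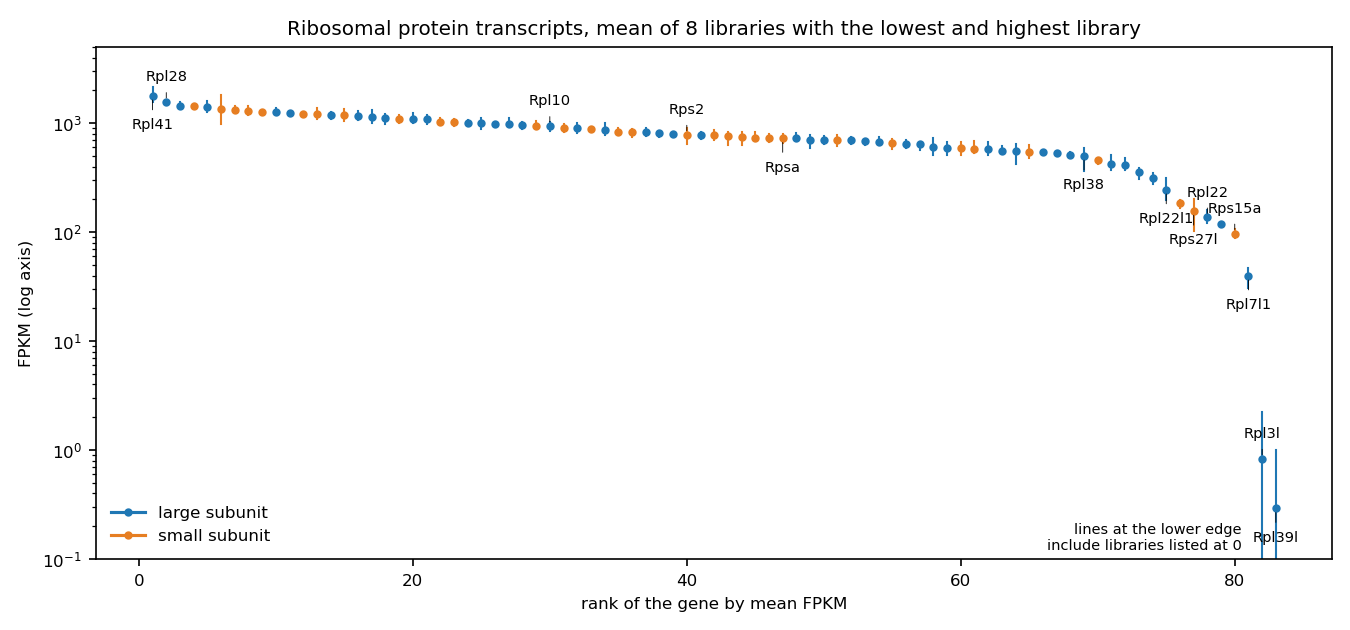
FPKM on a log axis against rank for the 83 members with reads, blue for the large and orange for the small subunit; points are means of 8 libraries and lines run from the lowest to the highest library. 74 members lie at or above 300 FPKM, and Rpl3l and Rpl39l stand apart near the bottom.

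Read counts of this family carry a limit of their own, since mouse ribosomal protein genes have many processed pseudogenes. In the GENCODE M21 transcripts, 81 of the 84 members with a matching transcript shared at least 1 window of 50 bases with another gene, and each of these 81 shared one with a pseudogene. The median member shared 48.8% of its windows, and 40 members shared at least 50%. Rps27 shared 98.6% with Rps27rt, Rpl10 shared 92.1% with Rpl10-ps3, and Rps2 shared 79.0% with other genes. Rpl22 shared 5.19%, Rpl7l1 9.19% and Rps27l 13.7%. How the counts of the members with high sharing were split among copies is not stated in the files or labels. Their levels, fold changes and share of counts are therefore less certain. Copies outside the name rule hold counts too, as given for Rps27rt and Rpl14-ps1 with the comparisons.

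Annotated start sites were examined because the TOP tract is the feature that these mRNAs are known for. RefSeq promoter windows (GRCm38.p6) were at hand for 65 members and for 15865 protein-coding genes in all. An unbroken run of at least 5 C or T that covers the annotated first base was found in 32.3% of members and 8.66% of all genes, and a run of at least 8 in 27.7% and 3.50%. A run that lies next to the annotated first base without covering it was not counted, as in the window of Rpl22l1 below. The accuracy of the annotated starts was not tested, so these shares do not give the share of mRNAs with a TOP tract. The following windows hold 30 bases before the annotated start and 15 from it, with the C or T run over the first base in capitals. They show Rpl28, for its level, and members whose fold changes are given with the comparisons, first 4 genes with a run and then 4 without a run of at least 5. The windows lie at chr9:120571487-120571531 (+) for Rpl14, chr16:33056452-33056496 (+) for Rpl35a, chr11:114668550-114668594 (+) for Rpl38, chr7:4792935-4792979 (+) for Rpl28, chr5:115559437-115559481 (+) for Rplp0, chrX:74270786-74270830 (+) for Rpl10, chr17:24720033-24720077 (+) for Rps2 and chr3:28805478-28805522 (+) for Rpl22l1.
Rpl14: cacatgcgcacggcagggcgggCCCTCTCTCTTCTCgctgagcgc
Rpl35a: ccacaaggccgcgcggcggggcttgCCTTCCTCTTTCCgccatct
Rpl38: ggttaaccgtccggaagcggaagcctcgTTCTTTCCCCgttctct
Rpl28: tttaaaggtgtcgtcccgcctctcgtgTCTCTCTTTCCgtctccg
Rplp0: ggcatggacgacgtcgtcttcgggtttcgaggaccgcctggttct
Rpl10: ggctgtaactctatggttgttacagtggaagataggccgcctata
Rps2: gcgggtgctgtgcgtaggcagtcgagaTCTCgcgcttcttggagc
Rpl22l1: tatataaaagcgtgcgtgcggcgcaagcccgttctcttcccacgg

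Among motifs searched on both strands of the windows of 250 bases before and 50 bases from the start, CCGGAAG, the core bound by ETS factors, occurred in 38.5% of members and 12.6% of all genes. AANATGGC, the YY1-type motif, occurred in 18.5% and 6.90%. TTCNNNGAA, the palindrome that STAT5 binds, occurred in 6.15% and 7.89%, and CACGTG, the E-box bound by Myc, in 7.69% and 8.22%. These shares describe letters in the windows and say nothing of binding.

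Summed over the family, ribosomal protein genes took 6.66% and 6.72% of all counts in late sgStat5 cells, 6.74% and 7.06% in late control cells, 7.30% and 7.10% in early sgStat5 cells, and 7.48% and 7.13% in early control cells. All 4 late libraries lay below all 4 early libraries, and in each of the 4 pairs of libraries with the same gate and replicate number the sgStat5 share was the lower. The sgStat5 and control libraries did not overlap in the late gate and overlapped in the early gate, and with 2 libraries per group these differences were not tested. The means were 6.69 ± 0.042% in late sgStat5, 6.90 ± 0.22% in late control, 7.20 ± 0.15% in early sgStat5 and 7.30 ± 0.25% in early control cells (SD, n = 2 each). In bulk RNA, a smaller share of cells with high levels and less of the RNA in each cell cannot be told apart.

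**Figure D2:**
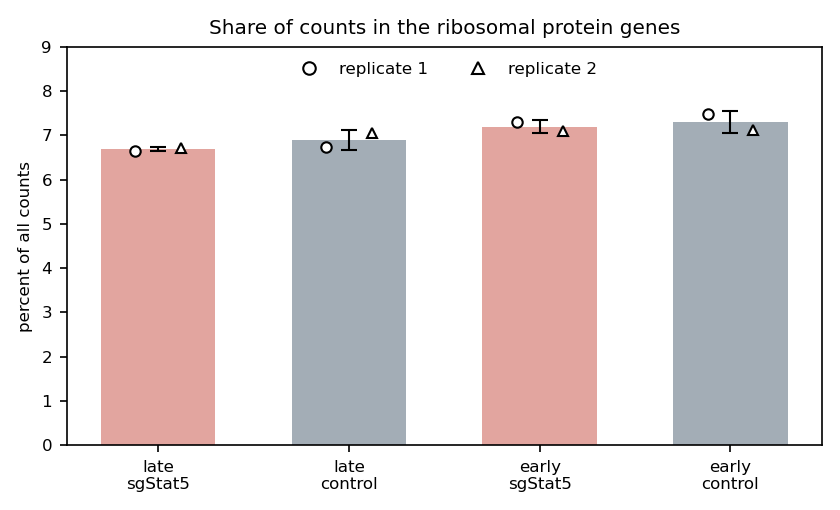
Percent of all counts in the 85 ribosomal protein genes, for the sorted groups; bars are means, error bars SD (n = 2), circles replicate 1 and triangles replicate 2. The late libraries lie between 6.66% and 7.06%, below the early libraries at 7.10% to 7.48%.

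The first question was whether loss of Stat5a and Stat5b altered ribosomal protein mRNA in committed cells. Without the replicate block, 0 of 83 members passed the test in late sgStat5 against late control cells, where 1.71% of all tested genes did. An unadjusted p under 0.05 was reached by 4 members, Rpl10, Rps2, Rplp0 and Rps4x, and by 12.4% of all genes, and by DESeq2 0 members were called. The libraries did not overlap and sgStat5 was lower for 27 members, where 20.8% of all genes showed this. Among the 428 other genes of the 500 with the highest mean CPM, 181 showed it. With the block, 5 members fell: Rpl10, Rplp0, Rps14, Rps2 and Rps4x. This is 6.02% of members, against 4.49% of all genes called lower with the block and 16.1% of these 428 genes. The share is thus near that of all genes and below that of other highly expressed genes. The replicate numbers were taken to pair the libraries across groups, as set out with the processing, so the blocked values are given too. The labels do not state this pairing.

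Rpl10 (chrX:74270816-74273135), a late-joining large-subunit protein needed for the final maturation of that subunit, had 895.2 and 913.6 CPM in late sgStat5 cells and 1086 and 1084 CPM in late control cells. The groups did not overlap, and each pair of libraries was lower in sgStat5. Its log2 fold change was -0.26 ± 0.066 (SE), with an adjusted p of 0.143 and of 0.0178 with the block. Rps2 (chr17:24720063-24721927), a small-subunit protein near the mRNA entry channel, had 875.4 and 871.8 CPM in late sgStat5 cells and 994.1 and 1132 CPM in late control cells. Its log2 fold change was -0.28 ± 0.083 (SE), with an adjusted p of 0.218 and of 0.0404 with the block.

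Rplp0 (chr5:115559467-115563729) had 2492 and 2520 CPM in late sgStat5 cells and 2843 and 2934 CPM in late control cells. The log2 fold change of Rplp0 was -0.20 ± 0.062 (SE), with an adjusted p of 0.235 and of 0.0282 with the block. Rps4x, the X-linked form of a small-subunit protein, had 1229 and 1251 CPM in late sgStat5 cells and 1439 and 1461 CPM in late control cells, and its log2 fold change of -0.23 ± 0.073 (SE) had an adjusted p of 0.264 and of 0.0410 with the block. For Rpl10, Rps2, Rplp0 and Rps4x, sgStat5 cells held between 82.2% and 86.8% of the control level. Replicates of a group lay closer together than the groups for Rpl10, Rplp0 and Rps4x. For Rps2 the late control libraries lay further apart than the nearest libraries of the groups.

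Rps14, whose human counterpart is lost in the 5q deletion syndrome, behaved otherwise between replicates. It had 1262 and 879.7 CPM in late sgStat5 cells and 1506 and 1049 CPM in late control cells. The groups overlap, because replicate 2 was lower than replicate 1 in each, but the difference within pairs was nearly equal at -0.26 and -0.25 on the log2 scale. The adjusted p was 0.800 without the block and 0.0340 with it. The highest log2 fold change of a member with more than 10 FPKM was that of the small-subunit gene Rps28, at 0.15, with 406.4 and 408.8 CPM in late sgStat5 cells and 337.5 and 397.4 CPM in late control cells (adjusted p = 0.648).

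Leaving out 1 library altered the blocked calls in the late gate. Without late control replicate 1 only Rps2 was called, and without late control replicate 2 or either late sgStat5 library 0 were. Without either early control library, or without early sgStat5 replicate 2, 3 were called. The median over the members was -0.069 on the log2 scale, against -0.016 over all tested genes and -0.12 over the 428 other genes among the 500 with the highest mean CPM. The 2 pairs of libraries gave member medians of -0.050 and -0.11. The member median was -0.026 when libraries were scaled by their totals, -0.038 with a stricter filter on low counts, -0.0095 by limma on FPKM values, -0.13 without late control replicate 1 and -0.020 without late control replicate 2.

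Before commitment, 0 of 83 members passed the test in early sgStat5 against early control cells, with or without the block, where 0.269% of all genes passed without the block and 2.33% with it. An unadjusted p under 0.05 was reached by 0 members and 6.44% of all genes, and by DESeq2 0 members were called. The median log2 fold change of the members was -0.017, against -0.00012 over all genes, and it became 0.0023 when libraries were scaled by their totals alone. In early sgStat5 cells Rpl10 had 979.3 and 1017 CPM, against 1118 and 1104 CPM in early control cells (log2 fold change -0.15 ± 0.066, SE, adjusted p = 0.780). Rps2 had 1142 and 1092 CPM in early sgStat5 cells, against 1269 and 1232 CPM in early control cells (log2 fold change -0.16 ± 0.083, SE, adjusted p = 0.866). Both groups of libraries lay apart for each gene, but neither difference passed the test.

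For Rplp0, early sgStat5 cells had 2529 and 2699 CPM and early control cells 2852 and 2882 CPM, with a log2 fold change of -0.13 ± 0.062 (SE, adjusted p = 0.820). For Rps4x, early sgStat5 cells had 1274 and 1406 CPM and early control cells 1464 and 1462 CPM, with a log2 fold change of -0.13 ± 0.073 (SE, adjusted p = 0.898). Rps14 had 1085 and 815.3 CPM in early sgStat5 cells and 1360 and 896.5 CPM in early control cells, with a log2 fold change of -0.25 ± 0.28 (SE, adjusted p = 1). The 5 genes called with the block after commitment were thus lower in sgStat5 libraries of both gates by pair, and only the late differences passed that test.

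Whether the effect of the guides differed between the gates was tested directly. For the difference of the sgStat5 effects, late minus early, 0 of 83 members passed with or without the block, and 0% of all 13775 genes did by edgeR, although 302 genes (2.19%, 0 of them members) had an unadjusted p under 0.05 and DESeq2 called 2 genes, neither of them a member. The lowest difference on the log2 scale among the members was that of Rpl22l1, at -0.22 ± 0.25 (SE), followed by Rps25 at -0.18 ± 0.14 (SE). For Rpl10 the difference was -0.11 with a 95% interval from -0.33 to 0.11, so the interval includes 0.

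**Figure D3:**
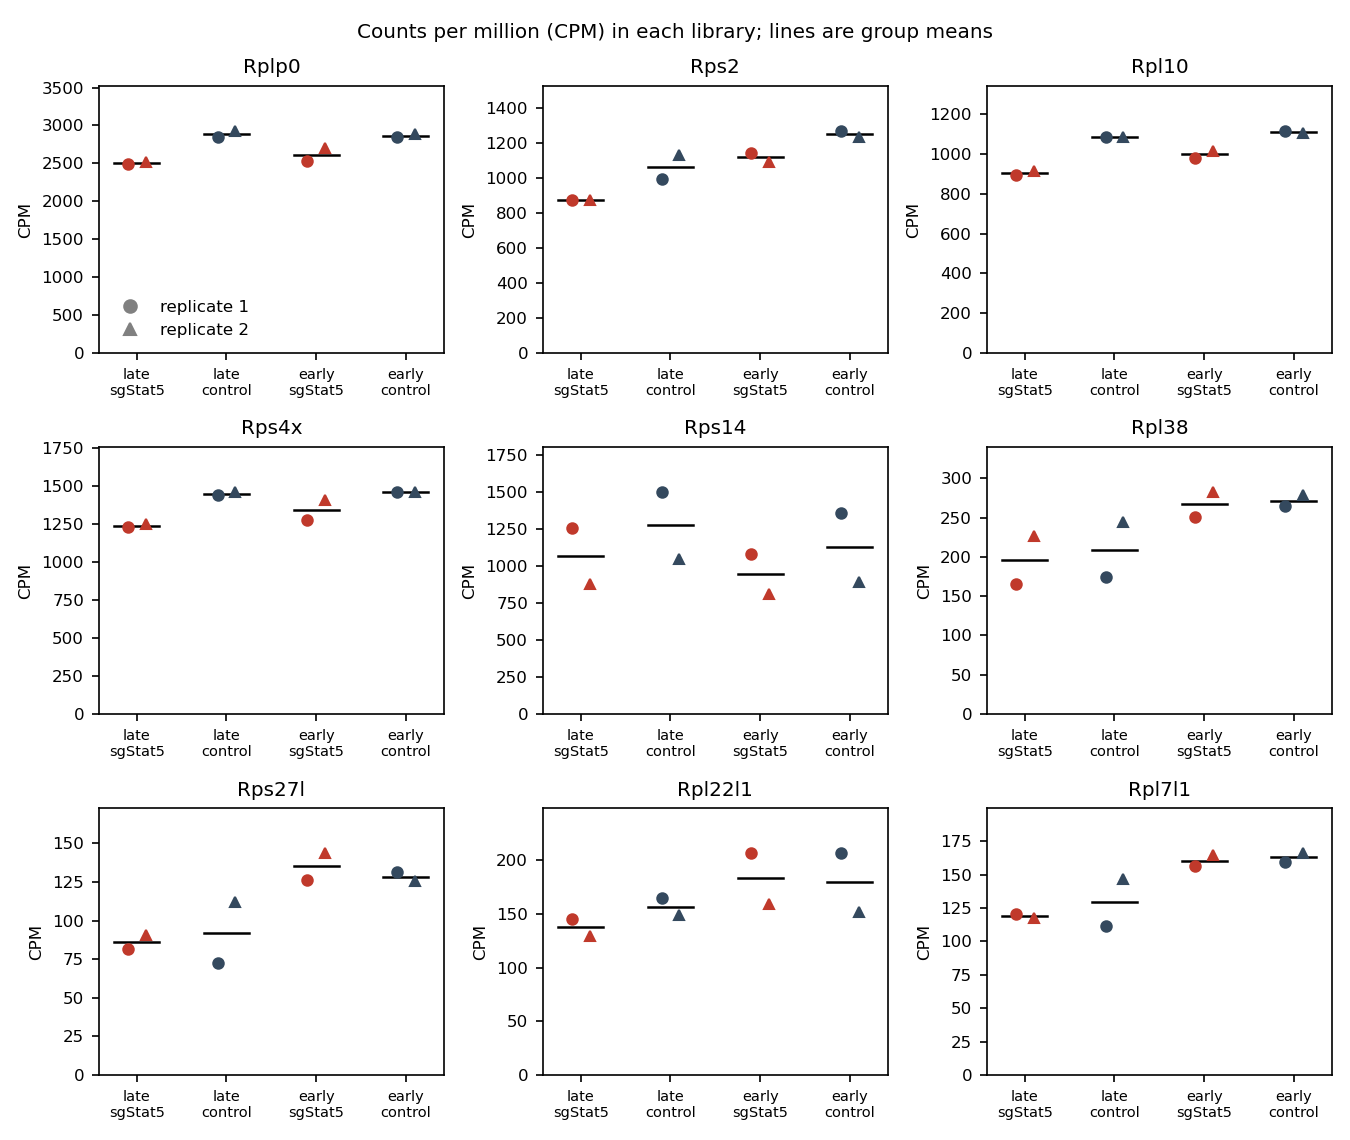
CPM (TMM-scaled) of 9 ribosomal protein genes in each library, by group; red for sgStat5, dark for control, circles replicate 1, triangles replicate 2 and lines group means. Rplp0, Rpl10 and Rps4x are lower in sgStat5 than in control cells of the same gate, and Rpl38, Rps27l and Rpl7l1 are lower in the late than in the early gate.

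The second question was whether ribosomal protein mRNA differed between the stages. In late against early sgStat5 cells, 0 of 83 passed without the block, where 0.973% of all genes did, and 11 had an unadjusted p under 0.05, all lower, where 24% of all genes did in either direction. With the block 13 fell and 0 rose, which is 15.7% of members against 11.5% of all genes called lower and 11.3% called higher. By DESeq2 3 members fell, Rpl14, Rps2 and Rps27l. The libraries did not overlap and late was lower for 56 members, where 28.1% of all genes showed this, and late was higher for 3. Among the 428 other highly expressed genes, late was lower without overlap for 210. The members' median was -0.13, against 0.026 over all genes and -0.12 over the 428 other highly expressed genes, of which 150 were called lower with the block. Over 1199 other genes with transcripts under 1000 bases the median was -0.096. Over all genes, the rank correlation (Spearman rho) of fold change with transcript length was 0.149 in sgStat5 and 0.169 in control cells. Over 81 members it was 0.0447 and 0.167. The part of transcript length in the stage differences was not tested. By limma on FPKM values the members' median was -0.085.

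Paralogs were among the members with the lowest fold changes. Rps27l (chr9:66946086-66949522), a paralog of Rps27 that p53 induces, had 81.4 and 90.4 CPM in late sgStat5 cells and 126.0 and 144.1 CPM in early sgStat5 cells. Its log2 fold change was -0.65 ± 0.19 (SE), with an adjusted p of 0.112 and of 0.0106 with the block. Its partner Rps27 had 359.6 and 361.6 CPM in late sgStat5 cells and 358.9 and 338.1 CPM in early sgStat5 cells, so the FPKM ratio of Rps27l to Rps27 was 0.15 and 0.167 in late sgStat5 cells and 0.234 and 0.286 in early sgStat5 cells. The ratio was lower in both late libraries, with the limit that Rps27 shares nearly all its windows with Rps27rt. Rps27rt had 357 and 357.2 CPM in late sgStat5 cells and 356.3 and 336.1 CPM in early sgStat5 cells, close to the values of Rps27. Whether the same reads were counted for both genes was not tested.

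Rpl22l1 (chr3:28805508-28807424) had 145.1 and 129.5 CPM in late sgStat5 cells and 206.4 and 159.5 CPM in early sgStat5 cells, a log2 fold change of -0.41 ± 0.18 (SE), with an adjusted p of 0.217 and of 0.0150 with the block. Rpl22 had 406.6 and 376.9 CPM in late sgStat5 cells and 479.2 and 437.7 CPM in early sgStat5 cells, a log2 fold change of -0.23 ± 0.10 (SE), with an adjusted p of 0.220 and of 0.0751 with the block. Per length, Rpl22l1 exceeded Rpl22 by 1.63- and 1.57-fold in late sgStat5 cells, 2.02- and 1.67-fold in late control cells, 1.97- and 1.67-fold in early sgStat5 cells and 2.09- and 1.72-fold in early control cells. Replicate 1 gave the higher ratio in each group. In counts the order is the other way, with 0.344 to 0.458 reads of Rpl22l1 for each read of Rpl22, since Rpl22 was divided by a transcript of 2352 bases, and Rpl22l1 shares 57.3% of its windows with other genes, so which transcript is the more abundant depends on these lengths. Rpl7l1 (chr17:46773907-46782656), a paralog of Rpl7, had 120.4 and 117.8 CPM in late sgStat5 cells and 156.3 and 164.7 CPM in early sgStat5 cells, a log2 fold change of -0.43 ± 0.13 (SE), with an adjusted p of 0.115 and of 0.0186 with the block.

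Of the core proteins, Rps2 had the lowest p in sgStat5 cells, with 875.4 and 871.8 CPM late and 1142 and 1092 CPM early. The fold change of Rps2 was -0.35 ± 0.083 on the log2 scale (SE), with an adjusted p of 0.0822 and of 0.00783 with the block. Rpl38, which in mice is needed for the translation of certain Hox mRNAs, had 166.1 and 226.5 CPM late and 251.3 and 283.2 CPM early, a log2 fold change of -0.45 ± 0.19 (SE), with an adjusted p of 0.218 and of 0.0156 with the block. Rpl14 had 733.8 and 811.9 CPM late and 998.4 and 973.0 CPM early. Its log2 fold change was -0.35 ± 0.099 (SE), with an adjusted p of 0.106 and of 0.0135 with the block. The processed pseudogene Rpl14-ps1, with which Rpl14 shares 49.3% of its windows, was lower late too. Rpl14-ps1 had 591 and 653.8 CPM late and 800.3 and 768.9 CPM early. Whether the same reads were counted for both was not tested.

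The other 7 genes called with the block were Rpl3, which lines the peptidyl transferase centre, Rpl4, which forms part of the exit tunnel, Rpl5, which can bind Mdm2, and Rpl6, Rpl29, Rpl35a and Rps25. Their log2 fold changes lay between -0.26 for Rps25 and -0.19 for Rpl3. Without early sgStat5 replicate 1 or late sgStat5 replicate 1, 0 members were called with the block. Without late sgStat5 replicate 2, 3 were called (Rpl14, Rpl22l1 and Rpl38), and without early sgStat5 replicate 2, 9 were called.

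In late against early control cells, 0 of 83 members passed without the block, where 0.0145% of all genes did, 4 had an unadjusted p under 0.05, where 14.9% of all genes did, and by DESeq2 0 were called. With the block 2 fell, which is 2.41% of members against 4.3% of all genes and 10.3% of the 428 other highly expressed genes called lower. The libraries did not overlap and late was lower for 27 members, where 24.2% of all genes and 156 of these 428 genes showed this. Rpl38 had 174.3 and 244.3 CPM in late control cells and 264.8 and 278.3 CPM in early control cells, with an adjusted p of 0.411 and of 0.0463 with the block. Rps27l had 72.6 and 111.8 CPM in late control cells and 131.4 and 125.6 CPM in early control cells, with an adjusted p of 0.317 and of 0.05, just under the threshold, with the block. Late libraries lay below early ones for both genes, and their late replicates differed widely.

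In late against early control cells the median was -0.026 over the 428 other highly expressed genes. Over 1199 other genes with transcripts under 1000 bases it was -0.051. The 2 control pairs differed. The members' median was -0.084, against 0.034 over all genes, but it was -0.17 in pair 1 and 0.00047 in pair 2. It was -0.13 without either replicate 2 control library, -0.042 without early control replicate 1 and -0.037 without late control replicate 1. In sgStat5 cells the pair medians were -0.16 and -0.11. Without late control replicate 1, early control replicate 1 or either late sgStat5 library, 0 members were called with the block in control cells, and without late control replicate 2, 7 were. Rplp0 had 2843 and 2934 CPM in late control cells and 2852 and 2882 CPM in early control cells, a log2 fold change of 0.011 ± 0.062 (SE, adjusted p = 0.952) whose sign turned when no filter on low counts was used.

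Markers of other cells moved with the gates. The 7 myeloid markers summed to 10.96 and 18.79 CPM in late sgStat5, 9.38 and 13.4 in late control, 76.6 and 59.0 in early sgStat5 and 39.1 and 37.2 in early control cells. The 4 erythroid markers summed to 42.7 and 121.8 CPM in late sgStat5, 16.5 and 94.1 in late control, 555.8 and 477.4 in early sgStat5 and 298.1 and 323.4 in early control cells. The 8 stromal markers, of which 1 was at 0 throughout, summed to 133.2 and 356.4 CPM in late sgStat5, 112.8 and 422.4 in late control, 0.674 and 201.0 in early sgStat5 and 32.4 and 249.7 in early control cells. Myeloid and erythroid sums were lower late. Stromal sums were higher in replicate 2 of every group, and also higher late than early in every pair with the same guides and replicate number. The part of all these markers in the differences of the ribosomal protein genes was not tested.

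Summed markers of natural killer and innate lymphoid cells were higher in sgStat5 cells of the late gate, mostly through Gzma. In the same comparison 5 ribosomal protein genes were called with the block. The 6 marker genes summed to 1830 and 2136 CPM in late sgStat5, 1023 and 1566 in late control, 1521 and 1675 in early sgStat5 and 1361 and 1681 in early control cells. Most of the sum was Gzma, a granzyme, with 1707 and 1970 CPM in late sgStat5 cells and 873.6 and 1410 CPM in late control cells (log2 fold change 0.69 ± 0.22, SE, adjusted p = 0.265, and 0.00477 with the block). The natural killer receptor gene Ncr1 had 0.309 and 0.215 CPM in late sgStat5 cells and 0 and 0.129 CPM in late control cells. Nkg7 went the other way, with 90.2 and 116.5 CPM in late sgStat5 cells and 123.3 and 126.9 CPM in late control cells. Of the 5 marker genes that were tested, only Gzma was called with the block in this comparison. The part of the marker genes in the differences of the ribosomal protein genes was not tested.

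Some members differed between the replicate numbers in every group. In the blocked fit, a comparison added after the data were seen, 15 of 83 members (18.1%) differed between replicate 2 and replicate 1, 5 higher and 10 lower in replicate 2, where 15.3% of all genes did, 7.34% higher and 7.96% lower. Rps14 was lower in replicate 2 by 0.52 in late sgStat5, 0.52 in late control, 0.41 in early sgStat5 and 0.60 in early control cells on the log2 scale. Its fitted log2 difference was -0.51 ± 0.043 (SE, adjusted p = 0.000304), which exceeded in size its difference in every comparison. Rpl13a, a large-subunit protein with 1814 and 1474 CPM in late sgStat5, 1658 and 1425 in late control, 1742 and 1474 in early sgStat5 and 1756 and 1431 in early control cells, was lower in replicate 2 in every group. Its fitted difference was -0.26 ± 0.036 (SE, adjusted p = 0.00312). The 10 lower genes include Rpl39l, which had 0 counts in every replicate 2 library.

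**Figure D4:**
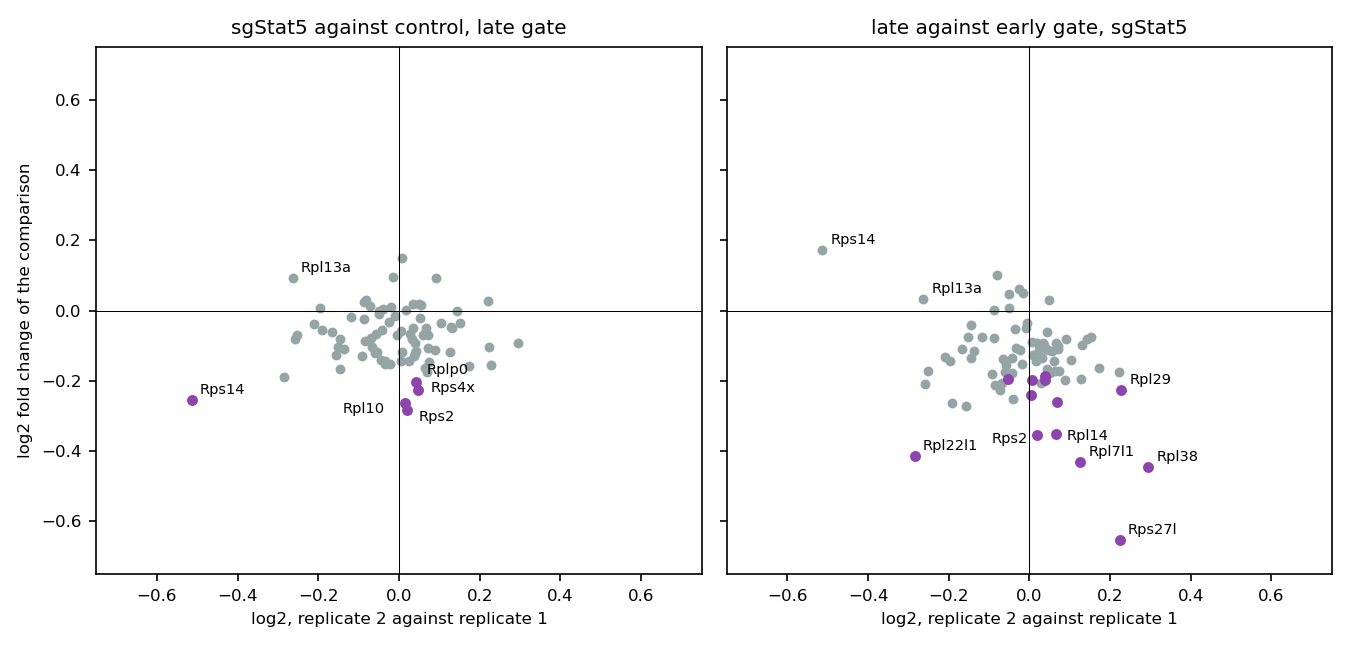
Log2 fold change of each member in the named comparison against its log2 difference between replicate 2 and replicate 1, without Rpl3l and Rpl39l; purple marks genes called with the replicate block. Rps14 lies at -0.51 on the horizontal axis, and Rps27l at -0.65 on the vertical axis of the right panel.

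The log2 fold change was under 0.25 in size for 78 of 83 members in the sgStat5 comparison of the late gate, 81 of the early gate, 71 in the stage comparison of sgStat5 cells and 77 in that of control cells. Of all 13775 tested genes, which include many with few reads, this held for 7816, 8839, 5821 and 6928 in the same comparisons, and of the 428 other highly expressed genes for 310 in the sgStat5 comparison of the late gate, 240 in the stage comparison of sgStat5 cells and 314 in that of control cells. Rpl3l and Rpl39l gave the largest fitted values, but on few reads. Rpl3l had 93 and 68 counts in late sgStat5, 52 and 44 in late control, 0 and 26 in early sgStat5 and 28 and 13 in early control cells, and Rpl39l had 29 counts or fewer in any library and 0 in all 4 libraries of replicate 2. Neither passed the test in any of the 5 comparisons, with or without the block.

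The medians of subsets of the family, defined by sequence, lay close together, and differences between subsets were not tested. In late against early sgStat5 cells, 20 tested members with a C or T run of at least 5 over the annotated start had a median log2 fold change of -0.13 and 43 without one of -0.14. In late sgStat5 against late control cells the medians were -0.048 and -0.082. Members with at least 50% of their windows shared (40 genes) had a median of -0.14 in late against early sgStat5 cells and of -0.084 in late sgStat5 against late control cells, and members below 50% (43 genes) of -0.11 and -0.069. Large-subunit members had a median of -0.15 and small-subunit members of -0.12 in the stage comparison of sgStat5 cells.

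Other parts of the translation machinery were compared with the ribosomal proteins, on gene lists chosen with earlier results of these data known. Of 28 translation initiation factors, 23 fell with the block in late against early sgStat5 cells, with a median log2 fold change of -0.39. In late against early control cells 5 fell (median -0.25), and in late sgStat5 against late control cells 4 fell (median -0.21). With the block, 11.5% of all tested genes and 35% of the 428 other highly expressed genes fell in late against early sgStat5 cells. In late against early control cells these shares were 4.3% and 10.3%, and 17.9% for the initiation factors. In late sgStat5 against late control cells they were 4.49% and 16.1%, and 14.3% for the initiation factors, below that of the other highly expressed genes. The 4 became 0 without either late control library, early sgStat5 replicate 2 or either late sgStat5 library and 2 without either early control library, and were 0 by DESeq2. The 5 became 0 without early control replicate 1 or late control replicate 1, 2 without either late sgStat5 library and 8 without late control replicate 2 or early sgStat5 replicate 1, and were 1 by DESeq2. Without the block only 1 passed, Eif3j1, a loosely bound subunit of eIF3. Eif3j1 had 121.1 and 145.7 CPM in late sgStat5 cells and 217.5 and 217.7 CPM in early sgStat5 cells, a log2 fold change of -0.71 ± 0.11 (SE, adjusted p = 0.0486, and 0.00143 with the block). Without the block it was lost when either control library of the early gate or any of the 4 sgStat5 libraries was left out (adjusted p from 0.0704 to 0.273), and by edgeR with library totals (0.0521), with TMM factors from the other genes (0.0525) or on the 4 libraries compared (0.0671), and by limma on FPKM values (0.0672 to 0.0895).

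Without late sgStat5 replicate 1 the blocked count of initiation factors in the stage comparison of sgStat5 cells was 1, without early sgStat5 replicate 1 it was 6, and over the other libraries left out it was 15 to 23. By DESeq2 it was 12. Of 18 elongation factors and other TOP mRNAs, 8 fell with the block in that comparison, with a median of -0.20, and in late sgStat5 against late control cells Pabpc1 and Npm1 fell, both lost without late control replicate 2 or late sgStat5 replicate 1, and Npm1 also without late sgStat5 replicate 2. Without late sgStat5 replicate 1 the count of 8 became 2, and without early sgStat5 replicate 1 it became 3. Pabpc1, the cytoplasmic poly(A)-binding protein, had 1683 and 1683 CPM in late sgStat5, 2073 and 2103 in late control, 2326 and 2190 in early sgStat5 and 2449 and 2412 in early control cells. It fell by 0.42 on the log2 scale in late against early sgStat5 cells (adjusted p = 0.0486, and 0.00092 with the block), and its 4 groups did not overlap. Without the block this call was lost when any early library or either late sgStat5 library was left out (adjusted p from 0.0806 to 0.273), and by edgeR on the 4 libraries compared (0.0746) or limma on FPKM values (0.0838 to 0.126).

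Mitochondrial ribosomal proteins, which are nuclear-encoded and build a separate ribosome, gave 22 lower and 1 higher of 78 with the block in late against early sgStat5 cells, with a median of -0.27 and none called without the block. The count of lower genes was 0 without late sgStat5 replicate 1, 1 without early sgStat5 replicate 1 and 9 without late sgStat5 replicate 2. Of 14 chaperones and assembly factors of ribosomal proteins, 8 fell with the block (median -0.33), 2 without late sgStat5 replicate 1 or early sgStat5 replicate 1. Among 24 genes of mTORC1 signalling and TOP mRNA control, 2 rose and 2 fell, and the median was 0.035. In size the medians of the initiation factors, the chaperones and the mitochondrial ribosomal proteins exceeded that of the cytosolic ribosomal proteins in this comparison, and these differences between lists were not tested.

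Myc drives transcription of ribosome genes and p53 responds to ribosomal stress, so both were listed too. Of 9 Myc genes and partners, 4 rose and 1 fell with the block in late against early sgStat5 cells. The 4 include Mxd1, Mxd4 and Mxi1. Mycn fell, with 15.4 and 46.3 CPM late and 105.1 and 147.6 CPM early. Its log2 fold change was -2.03 ± 0.54 (SE), with an adjusted p of 0.0956 and of 0.000436 with the block. Over all genes 11.3% were called higher and 11.5% lower there. In late against early control cells 0 rose and 2 fell. Myc itself had 176.7 and 196.9 CPM in late sgStat5, 138.8 and 195.8 in late control, 217.2 and 226.9 in early sgStat5 and 209.5 and 224.7 in early control cells. It fell with the block in late against early control cells, with a log2 fold change of -0.38 ± 0.16 (SE) and an adjusted p of 0.330 without the block and 0.0478 with it. That call was lost without either early control library, late control replicate 1 or either late sgStat5 library. Its log2 fold change in late sgStat5 against late control cells was 0.16 ± 0.16 (SE), with an adjusted p of 0.775 and of 0.401 with the block. Mxd1, an antagonist of Myc, had 36.6 and 30.7 CPM in late sgStat5 cells and 15.7 and 12.8 CPM in late control cells, and rose by 1.24 on the log2 scale (adjusted p = 0.0338, and 0.00478 with the block). Without the block this call was lost when any late library or either early sgStat5 library was left out (adjusted p from 0.0664 to 0.213), and with the block without late sgStat5 replicate 1 (adjusted p = 0.0666). Without the block it was also lost by edgeR on the 4 libraries compared (0.113) and by limma on FPKM values with another pseudocount or no filter (0.0543 and 0.0571).

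Among 19 genes of the p53 response, Sesn1 and Trp53inp1 rose and Cdkn1a fell with the block in late sgStat5 against late control cells. Of all 13775 tested genes, 513 rose and 619 fell with the block in this comparison. Cdkn1a, the cell-cycle inhibitor p21, had 48.6 and 31.7 CPM in late sgStat5 cells and 87.3 and 80.6 CPM in late control cells. Its log2 fold change was -1.07 ± 0.24 (SE), with an adjusted p of 0.105 and of 0.0167 with the block, and the call was lost without either late control library or late sgStat5 replicate 2. In late against early sgStat5 cells Btg2 and Trp53inp1 rose and Aen, Perp and Sesn2 fell with the block, so the list moved in both directions. Over all tested genes 11.3% were called higher and 11.5% lower with the block there, so such calls were common.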

How the data were processed

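Per the submitters' processing notes, bcl2fastq 1.8.4, STAR 2.4.0, RSEM 1.2.25 and the GRCm38/mm10 genome were used. Per the file headers, the authors' deposited counts are unadjusted tags on exons, from HOMER with no strand option and 1 RefSeq transcript for each gene. The authors' deposited FPKM values came from HOMER as well. Reads of genes that overlap on the other strand cannot be told apart, and 10 members have another transcript in the FPKM values than in the counts.

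Members and gene lists were chosen with earlier results of these data known. Counts were fitted with edgeR 4.0.16 in R 4.3.3 (filterByExpr, TMM, quasi-likelihood F-test, two-sided, all 8 libraries, 1 mean per group). Benjamini-Hochberg adjustment ran over 13775 genes in each of 5 comparisons, with a threshold of 0.05. SE was taken as the size of the log2 fold change over the square root of F. Pair differences used CPM with 0.5 added. Precision is limited by 2 libraries per group, with 4 residual degrees of freedom (3 with the block), rather than by depth. Replicates differed beyond counting error, with a chi-square per degree of freedom from 20.7 to 53.3.

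Over all tested genes, the departure of replicate 1 from the mean of its group was alike in the groups (6 correlations from 0.49 to 0.675), and the second principal component (27% of variance) separated the replicate numbers. Over the ribosomal protein genes these correlations ran from 0.221 to 0.897. The numbers were therefore taken to pair the libraries, and the replicate block is given beside each result whose call it changes. This pairing was inferred from these same data and is not given by the labels. Named were the members past 0.05 with or without the block, those with the lowest and highest fold changes or levels, paralogs, Rplp0 and Rpsa. Alternatives were DESeq2 1.42.0, limma 3.58.1 on log2(FPKM + 1), other scalings and filters, fewer samples, and each library left out. The fits were tested on simulated data with known changes.

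Sharing was counted in windows of 50 bases of GENCODE M21 transcripts, of which 83 members matched by RefSeq accession. Coordinates count from 1 on mm10.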

Additional observations from a re-analysis of the deposited data

How the results depend on the processing

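Precision is limited by 2 libraries per group. Without the replicate block, 0 members were called in each of the 5 comparisons under other scalings (DESeq2 size factors, library totals, TMM factors from the other genes), other filters on low counts, edgeR on the 4 libraries compared and limma on FPKM values. With the replicate block 5 members were called in late sgStat5 against late control cells, 13 in late against early sgStat5 cells and 2 in late against early control cells, and it changed no other count of members. DESeq2 called 3 in late against early sgStat5 cells. The cause of these differences was not tested. With each library left out in turn, the counts were 0 to 2 in late against early sgStat5 cells and 0 in the other comparisons. With the block as well, an alternative chosen after seeing the data, they were 0 to 5 in late sgStat5 against late control cells (1 without late control replicate 1), 0 to 11 in late against early sgStat5 cells (11 without either early control library, 10 without either late control library, 9 without early sgStat5 replicate 2) and 0 to 7 in late against early control cells.

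The share of counts in late sgStat5 cells was 6.92% of protein-coding counts and 6.73% without Rn45s, and in early sgStat5 cells 7.44% of protein-coding counts, by construction of a smaller total. Over 63 results for named genes, 1435 values under an alternative kept direction and side of the threshold, 163 came to pass it, 47 no longer passed it and 20 changed sign. The 47 concern Stat5a, Stat5b, Mxd1, Pabpc1 and Eif3j1. The log2 fold change of Rplp0 in late against early control cells was -0.0096 without a filter on low counts. With each library left out, values that were not called turned sign. In early sgStat5 against early control cells Rpl22l1 ranged from -0.17 to 0.26 (with the block -0.081 and -0.028 at its negative values), Rps27l from -0.030 to 0.16 (with the block -0.13) and Rps14 from -0.51 to 0.075. In late sgStat5 against late control cells Rps14 ranged from -0.54 to 0.0093, Rps27l from -0.40 to 0.26 (with the block 0.20) and Rps28 reached -0.0062 with the block, and Myc ranged from -0.084 to 0.45 (with the block -0.025). Rps27l ranged from -0.47 to 0.19 in the difference of the sgStat5 effects. In late against early control cells Rpl22l1 ranged from -0.40 to 0.036 and Rplp0 from -0.034 to 0.045 (with the block -0.017 and -0.0043). The causes were not tested.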
